A study of Mus musculus with 11 samples.

Results

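Expression of 10 genes of primary microcephaly and the centrosome was followed in sorted basal progenitors of the mouse cortex: Aspm, Wdr62, Cdk5rap2, Cep63, Cep152, Cep135, Cenpj, Stil, Mcph1 and Nde1. They were taken as all probes of the raw intensity table whose gene symbol in the array's platform annotation is one of these 10, which gave 24 of 45281 probes. The array named 19057 genes in all. The samples were basal progenitors isolated by flow cytometry from embryonic cortex at embryonic day 16 (E16, 5 arrays) and at embryonic day 13 (E13, 6 arrays). Each array was 1 biological replicate from embryonic cortex, with 3 litters behind each stage. All arrays are labelled WT, taken to mean wild type, and the labels name no treatment. The sources used here do not give the marker and gate of the sort, the mouse strain or which litter an embryo belonged to. The comparison of the stages asks how gene expression of these progenitors differs between an early and a later time of cortical neurogenesis.

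Primary microcephaly is a congenital reduction of brain size, and most genes first linked to it encode proteins of the centrosome or of the spindle poles. The centrosome is a pair of centrioles in a matrix of pericentriolar material. Its centrioles are copied once per cell cycle, and it anchors and nucleates the microtubules that form the mitotic spindle. In the developing cortex the progenitors depend on these proteins for the speed and orientation of their divisions and for survival. Basal progenitors are progenitors that divide away from the ventricular surface, mostly to give neurons.

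Each E16 array detected between 19731 and 20453 probes, and each E13 array between 20179 and 20604, with a detection p-value under 0.05 counted as detected. Eomes, the transcription factor that marks basal progenitors, was detected on all 11 arrays and was lower at E16 by 0.75 on the log2 scale (a difference of -0.75, SE 0.15, limma adjusted p = 0.00176). Of all genes tested 14.1% were lower and 13% higher at E16, which is the background for each marker list here. Of 14 tested basal progenitor markers 10 were lower and 2 higher at E16. Of 13 radial glia markers 3 were lower and 4 higher, and of 9 neuron markers 3 were lower and 0 higher. All 6 tested Cajal-Retzius markers were lower at E16, led by Ebf2 (-3.68) and Lhx1 (-3.28), and both tested erythroid markers were higher. Summed over those 6 Cajal-Retzius markers, the normalized intensity was 2790 to 5281 units on the E16 arrays and 12023 to 18354 units on the E13 arrays, while the Cajal-Retzius markers Trp73 and Nhlh2 were not kept. Summed over the 14 basal progenitor markers it was 23321 to 28432 units at E16 and 31274 to 39191 units at E13. The erythroid sum was 1159 to 3898 units at E16 and 71.5 to 1561 units at E13. Of 5 interneuron markers 2 were lower and 1 higher, of 2 oligodendrocyte lineage markers 1 was higher, of 2 microglia markers 0 changed, and 0 of the 9 endothelial and mural markers were kept. The part of these shifts in the results below was not tested. In sorted cells measured in bulk, fewer cells of a kind and less RNA per cell cannot be told apart.

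Of the 10 genes, Aspm and Nde1 fell about 2-fold by E16, and 7 others did not pass the test in either direction. Aspm was lower by 1.21 and Nde1 by 1.04 on the log2 scale (differences of -1.21 and -1.04), so that the E13 level was 2.31 and 2.06 times the E16 level. The differences of the other 7 tested genes lay between -0.28 (Cep152) and 0.15 (Cdk5rap2). Their 95% confidence intervals together spanned -0.55 to 0.40, inside a 2-fold change of normalized intensity in both directions. For Wdr62, whose probe was close to background, a difference is understated, so its interval does not bound the change of its transcript. Stil, the 10th gene, was detected on 0 of 11 arrays by either of its probes and was not tested. Values are background-corrected, quantile-normalized log2 intensities, each difference is E16 minus E13, and a gene is called when its p-value in limma, adjusted over all 10568 genes tested, is under 0.05. Thus 2 of 9 tested members were lower and 0 higher, where 14.1% of all genes tested were lower, 13% higher and 27.1% called in either direction. At an unadjusted p under 0.05 in limma the counts were 3 lower and 0 higher. The share of all genes at that threshold was not counted, and the shares above are for adjusted p, so these counts have no background here. Both called members were at least 2-fold lower, as were 2.94% of all genes. The median difference of the 9 members was -0.21, and that of all genes tested was -0.01. Centring each array on its median in place of quantile normalization gave 1616 genes lower and 966 higher, in place of 1495 and 1373, and the same counts for the members.

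**Figure D1:**
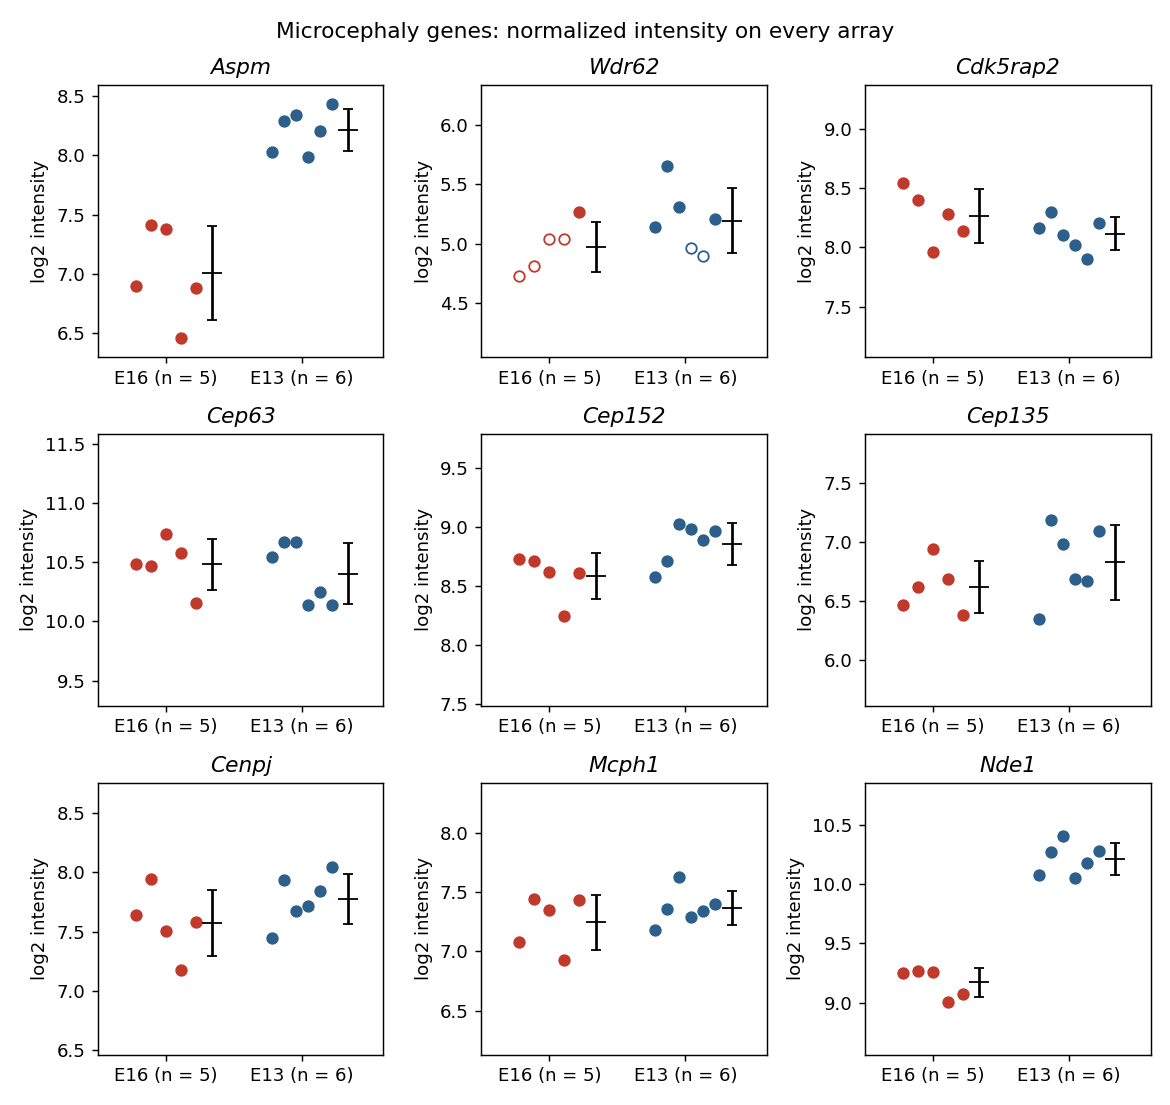
Normalized log2 intensity (vertical axis, the same span of 2.3 units in each panel) of the brightest kept probe of each of the 9 tested genes, on 5 E16 arrays (red, left) and 6 E13 arrays (blue, right). Open points are arrays where the probe was not detected, and the bars are the mean and SD of a stage. For Aspm and Nde1 every E16 array lay below every E13 array, while the stages overlapped for the other 7 genes.

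At the spindle poles, Aspm and Wdr62 differed in what could be measured. Aspm (chr1:139454188-139494088 in GRCm38.p6, the build of all gene positions given here) binds the minus ends of spindle microtubules and keeps the spindle poles focused. The Aspm probe read 6.89, 7.41, 7.38, 6.46 and 6.88 on E16 replicates 1 to 5, against a lowest value of 7.99, a median of 8.25 and a highest value of 8.43 on the 6 E13 arrays. The highest E16 array was thus below the lowest E13 array, and E16 replicate 4 was the lowest of all. Aspm averaged 7.01 ± 0.40 at E16 (SD, n = 5) and 8.22 ± 0.18 at E13 (SD, n = 6), a difference of -1.21 (SE 0.165, limma adjusted p = 6.89e-05). In all, 8.80% of the genes tested had every E16 array below every E13 array, and 2 of the 9 members did, while 8.16% had every E16 array above every E13 array and 0 members did. Without E16 replicate 4 the Aspm difference was -1.07 (limma adjusted p = 1.11e-04). The other Aspm probe, drawn from a different transcript record, was detected on 0 of 11 arrays.

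Wdr62 (chr7:30240138-30281908) is a spindle pole scaffold that works with Aspm and Cep63. The probe of Wdr62 was close to background: it was detected on 1 of 5 E16 arrays and on 4 of 6 E13 arrays. Wdr62 read 4.73, 4.81, 5.03, 5.03 and 5.26 on E16 replicates 1 to 5, against a lowest value of 4.89, a median of 5.17 and a highest value of 5.65 at E13. The stages overlapped. The difference of Wdr62 was -0.22 (95% confidence interval -0.54 to 0.09, limma adjusted p = 0.298) and -0.13 without E13 replicate 2, and near the background a difference is understated by the offset added before taking logs.

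In the pericentriolar material, Cdk5rap2 (chr4:70216855-70410435), which recruits and activates the gamma-tubulin complexes that nucleate microtubules, had 3 kept probes and gave no call with any of them. Its brightest probe read 8.54, 8.40, 7.96, 8.29 and 8.14 on E16 replicates 1 to 5, against a lowest value of 7.90, a median of 8.14 and a highest value of 8.30 at E13. The stages overlapped, with 2 E16 arrays above all E13 arrays. Cdk5rap2 averaged 8.27 ± 0.23 at E16 (SD, n = 5) and 8.12 ± 0.14 at E13 (SD, n = 6), a difference of 0.15 (95% confidence interval -0.11 to 0.40, limma adjusted p = 0.398). Without E16 replicate 1 the difference of Cdk5rap2 was 0.08 and without E16 replicate 3 it was 0.22, neither past the threshold. The other 2 probes differed by 0.02 and 0.04.

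Of the centriole duplication factors, which in turn recruit the kinase Plk4 and build the new centriole, none of the 4 tested passed in limma. Only 1, Cep152, had an unadjusted p under 0.05 in limma, a count with no background share here. Cep63 (chr9:102586578-102626564) and Cep152 (chr2:125549864-125625174) form a ring around the parent centriole to which Plk4 is brought. The brightest Cep63 probe read 10.48, 10.47, 10.74, 10.58 and 10.15 on E16 replicates 1 to 5, against 10.55, 10.68, 10.67, 10.14, 10.25 and 10.14 on E13 replicates 1 to 6. At E13, 3 arrays lay near the top and 3 near the bottom of the range of the gene, and the E16 values covered nearly the same span. The difference of Cep63 was 0.08 (95% confidence interval -0.19 to 0.35, limma adjusted p = 0.698), and leaving out 1 array at a time gave 0.02 to 0.16. A dimmer kept probe of Cep63 differed by -0.17 (95% confidence interval -0.49 to 0.15, limma adjusted p = 0.463 over all probes), and the sign of the Cep63 difference turned when the kept probes were averaged (-0.0463) or when E16 replicates 3 and 4 were left out (-0.0370). Of the other 2 Cep63 probes, 1 was detected on 0 of 11 arrays and 1 on 1 of 6 E13 arrays only.

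Cep152 came closest to a call among the genes that did not pass. Its probe read 8.73, 8.71, 8.62, 8.25 and 8.61 on E16 replicates 1 to 5, against 8.57, 8.71, 9.02, 8.98, 8.89 and 8.96 on E13 replicates 1 to 6. The last 4 of these E13 arrays were above every E16 array, and E13 replicates 1 and 2 were within the E16 range. Cep152 averaged 8.58 ± 0.19 at E16 (SD, n = 5) and 8.86 ± 0.18 at E13 (SD, n = 6), a difference of -0.28 (SE 0.12, 95% confidence interval -0.52 to -0.03, limma adjusted p = 0.0925). It passed without E13 replicate 1 (-0.33, limma adjusted p = 0.0454) and with array weights (-0.28, limma adjusted p = 0.0494), which are 2 of the 23 alternatives, and its adjusted p ranged from 0.0454 to 0.340 over them.

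Cep135 (chr5:76588653-76646466), a structural protein of the centriole cartwheel and wall, read 6.46, 6.62, 6.94, 6.69 and 6.38 on E16 replicates 1 to 5, against a lowest value of 6.35, a median of 6.83 and a highest value of 7.18 at E13. The lowest E13 array, replicate 1, was below every E16 array. The difference was -0.21 (95% confidence interval -0.55 to 0.13, limma adjusted p = 0.369), and -0.14 without E13 replicate 2. A second probe of Cep135 was detected on 0 of 11 arrays. Cenpj (chr14:56526761-56575489), which sets the length of new centrioles and binds tubulin, read 7.64, 7.95, 7.51, 7.18 and 7.58 on E16 replicates 1 to 5, against a lowest value of 7.44, a median of 7.78 and a highest value of 8.04 at E13. Again the stages overlapped, and the difference was -0.20 (95% confidence interval -0.51 to 0.10, limma adjusted p = 0.322), and -0.11 without E16 replicate 4. Stil (chr4:115000108-115043203), the partner through which Plk4 starts the cartwheel, could not be assessed: its 2 probes read 4.44 to 4.96 at E16 and 4.47 to 5.06 at E13, and neither was detected on any array. Those readings bound the signal of Stil and do not show that the transcript was absent.

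Mcph1 (chr8:18595116-18808089) encodes microcephalin, which restrains chromosome condensation and takes part in the DNA damage response. All 4 of its probes were kept, 3 of them detected on all 11 arrays. Its brightest probe read 7.08, 7.45, 7.35, 6.93 and 7.44 on E16 replicates 1 to 5, against a lowest value of 7.19, a median of 7.35 and a highest value of 7.63 at E13. E16 replicates 1 and 4 were below all E13 arrays and the other 3 were within the E13 range. The difference was -0.12 (95% confidence interval -0.39 to 0.15, limma adjusted p = 0.535). It was -0.04 without E16 replicate 4, -0.08 without E16 replicate 1 and -0.07 without E13 replicate 3. Fitted probe by probe, the 4 differences lay between -0.23 and -0.12, and 0 of 4 passed in limma, with adjusted p of at least 0.227 and every 95% confidence interval holding 0.

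Nde1 (chr16:14163275-14192928) links the dynein motor to its regulator Lis1 and acts at the centrosome and at the kinetochores of the mitotic spindle. It had 4 probes, all detected on all 11 arrays, and all 4 fell. The brightest read 9.25, 9.27, 9.26, 9.01 and 9.07 on E16 replicates 1 to 5, against 10.08, 10.27, 10.41, 10.06, 10.18 and 10.28 on E13 replicates 1 to 6. The stages were apart on every one of the 4 probes. Nde1 averaged 9.17 ± 0.12 at E16 (SD, n = 5) and 10.21 ± 0.14 at E13 (SD, n = 6), a difference of -1.04 (SE 0.09, limma adjusted p = 1.08e-06). Fitted on their own, the 4 probes differed by -1.04, -1.07, -1.01 and -0.93, with limma adjusted p between 2.22e-06 and 3.74e-04 over all 20599 kept probes. The spread among the 4 estimates was smaller than the widest standard error of a single one (0.16). The probes share the gene and the arrays, so they are 4 readings of 1 change and not replicates.

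**Figure D2:**
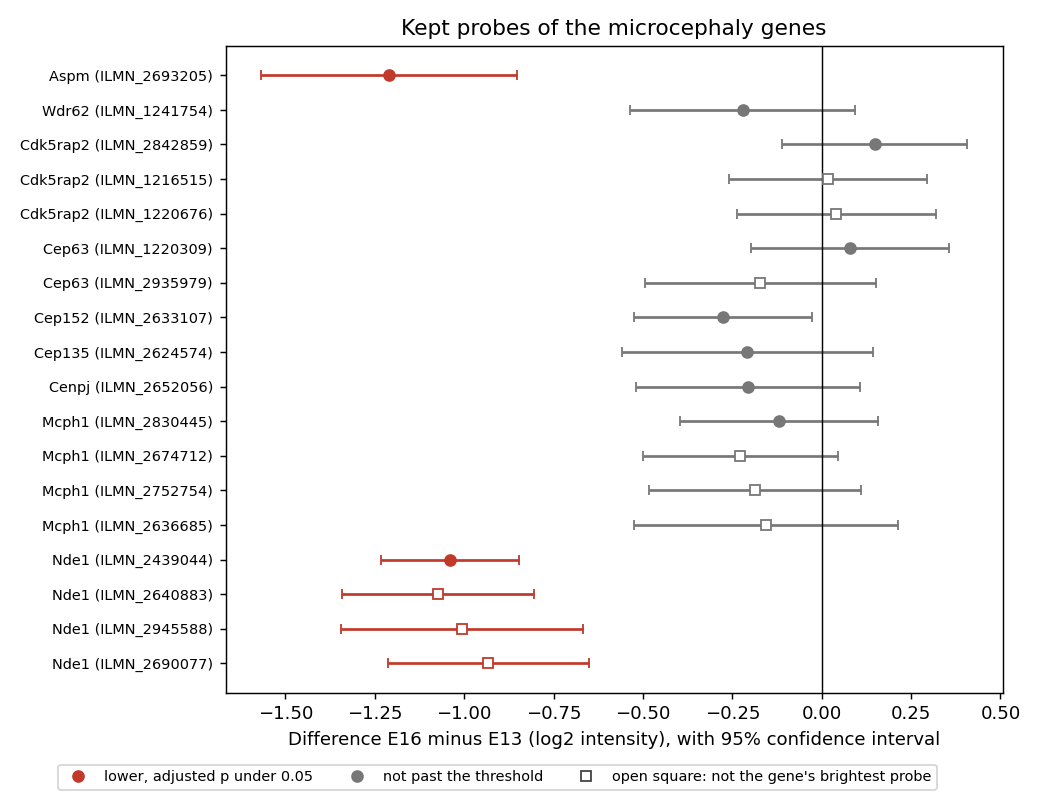
Difference E16 minus E13 on the log2 scale (horizontal axis) for the 18 kept probes of 9 genes, with 95% confidence intervals from limma. Filled circles are the brightest probe of a gene, open squares its other probes, and red marks an adjusted p under 0.05. All 4 Nde1 probes and the Aspm probe lie near -1, and the other 13 lie between -0.28 and 0.15.

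Of the 24 probes of the 10 genes, 18 were kept, since a probe had to be detected on at least 5 arrays, and 14 were detected on all 11. Of the 18, 5 were lower and 0 higher in limma, against 11.9% and 10.7% of all kept probes. These 5 were the kept Aspm probe and the probes of Nde1, so they are readings of 2 genes and not 5 separate changes. The 6 that were not kept belong to Aspm (1), Stil (2), Cep135 (1) and Cep63 (2). No gene had probes called in opposite directions, although the 2 kept Cep63 probes had differences of opposite sign.

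Whether the members changed unequally was tested directly. For each of the 36 pairs of tested members the log2 ratio of the 2 genes within each array was compared between the stages by a two-sided exact permutation test, with p-values adjusted over the 36 pairs. With each array taken as an independent unit, the smallest p possible is 0.00433. Embryos of 1 litter were thus treated as independent, since litters were unknown per array. Permuting whole litters was not possible, and the p-values below do not allow for likeness within a litter. In 14 pairs the change was unequal, and each of these set Aspm or Nde1 against 1 of the other 7 genes (exact permutation, adjusted p = 0.0111 in each). In these pairs the differences in change were 0.76 to 1.36 on the log2 scale. The smallest was that of Nde1 with Cep152 and the largest that of Aspm with Cdk5rap2. Aspm and Nde1 fell by amounts whose difference was -0.17 (exact permutation, adjusted p = 0.338). None of the 21 pairs among the other 7 genes passed, with exact permutation p-values of at least 0.0346 before adjustment. The 14 pairs are not independent of each other, since Aspm and Nde1 recur in them. In the pairs of Aspm and Nde1 with Wdr62, a fall of Wdr62 would be understated near background. Those pairs therefore cannot tell whether the transcripts changed unequally.

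The promoters of the 2 genes that fell, and that of Cep152, a gene that did not pass, are shown because regulatory motifs of genes with cell cycle expression sit close to the start site. The windows run from 250 bases before to 50 bases after a RefSeq start (GRCm38.p6), 5′ to 3′ on the strand of the gene. For Aspm and Cep152 that start lies inside the gene span given above and not at its edge. Motif positions count from the start of the window's definition. They are chr1:139454523-139454822 (plus strand) for Aspm, chr16:14163025-14163324 (plus strand) for Nde1 and chr2:125625064-125625363 (minus strand) for Cep152. Capitals mark the letters TTTGAA, the cell cycle genes homology region (CHR), and CCAAT, the NF-Y box, on either strand, so that ATTGG is CCAAT on the other strand.
Aspm: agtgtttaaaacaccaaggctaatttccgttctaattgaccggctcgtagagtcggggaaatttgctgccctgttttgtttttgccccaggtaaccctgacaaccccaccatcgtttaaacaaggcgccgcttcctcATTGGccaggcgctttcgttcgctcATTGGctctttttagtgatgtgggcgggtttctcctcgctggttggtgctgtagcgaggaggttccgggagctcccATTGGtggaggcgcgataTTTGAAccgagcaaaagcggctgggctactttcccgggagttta
Nde1: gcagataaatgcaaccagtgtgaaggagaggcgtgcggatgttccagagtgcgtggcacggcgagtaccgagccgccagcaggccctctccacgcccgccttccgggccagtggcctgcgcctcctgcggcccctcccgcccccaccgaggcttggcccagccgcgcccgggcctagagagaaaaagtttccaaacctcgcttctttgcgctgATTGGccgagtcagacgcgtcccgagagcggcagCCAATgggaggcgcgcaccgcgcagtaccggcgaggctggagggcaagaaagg
Cep152: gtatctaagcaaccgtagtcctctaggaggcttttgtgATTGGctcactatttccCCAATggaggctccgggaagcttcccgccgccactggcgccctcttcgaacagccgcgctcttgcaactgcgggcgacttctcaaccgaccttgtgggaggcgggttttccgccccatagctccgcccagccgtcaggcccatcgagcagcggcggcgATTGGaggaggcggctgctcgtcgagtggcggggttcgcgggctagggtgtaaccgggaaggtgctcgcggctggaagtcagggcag
The Aspm window held CCAAT at 3 places, with first bases at -113, -88 and -12 from the start site, and TTTGAA at 7. The Nde1 window held CCAAT at 2 places, at -37 and at -3, the second running across the start, and no TTTGAA. The Cep152 window also held CCAAT at 3 places. Windows were given for 9 of the 10 genes (Mcph1 not among them): 6 held CCAAT, 2 held TTTGAA (Aspm and Cdk5rap2), and 1 (Wdr62) held an E2F motif, TTTCCCGC, with TTTGGCGC also searched. Among all 32851 windows of the same length 37.4% held CCAAT, 17.9% TTTGAA and 1.56% an E2F motif of these letters. CCAAT was thus present in genes that fell and in genes that did not pass. A match is a run of letters and not evidence of binding.

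The genes whose values over the 11 arrays were nearest to those of Aspm were Sgo2a, Kif15, Anln, Kif18a, Spag5 and Top2a. Nearness is the root-mean-square difference between 2 genes' log2 values after each gene is centred on its own mean over the 11 arrays, taken over all genes tested with clone and predicted-gene names and the members left out. Sgo2a, a shugoshin that protects centromeric cohesion, was nearest with 0.13 log2 units. Kif15 (0.17) and Kif18a (0.18) are mitotic kinesins, Anln (0.18) is the cytokinesis protein anillin, Spag5 (0.18) is the spindle protein astrin, and Top2a (0.18) is a DNA topoisomerase. Their differences between the stages ranged from -1.32 (Sgo2a) to -0.93 (Kif18a). Among the members Nde1 was nearest to Aspm, with 0.21, and 15 other genes were nearer. The next member, Cep152, was 0.51 away, with 1006 genes nearer, and Cdk5rap2 was farthest at 0.75. These counts of nearer genes were taken over all genes tested, with no names and no members left out. This nearness holds the stage difference itself, so a gene with a fall like that of Aspm is near by that alone.

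**Figure D3:**
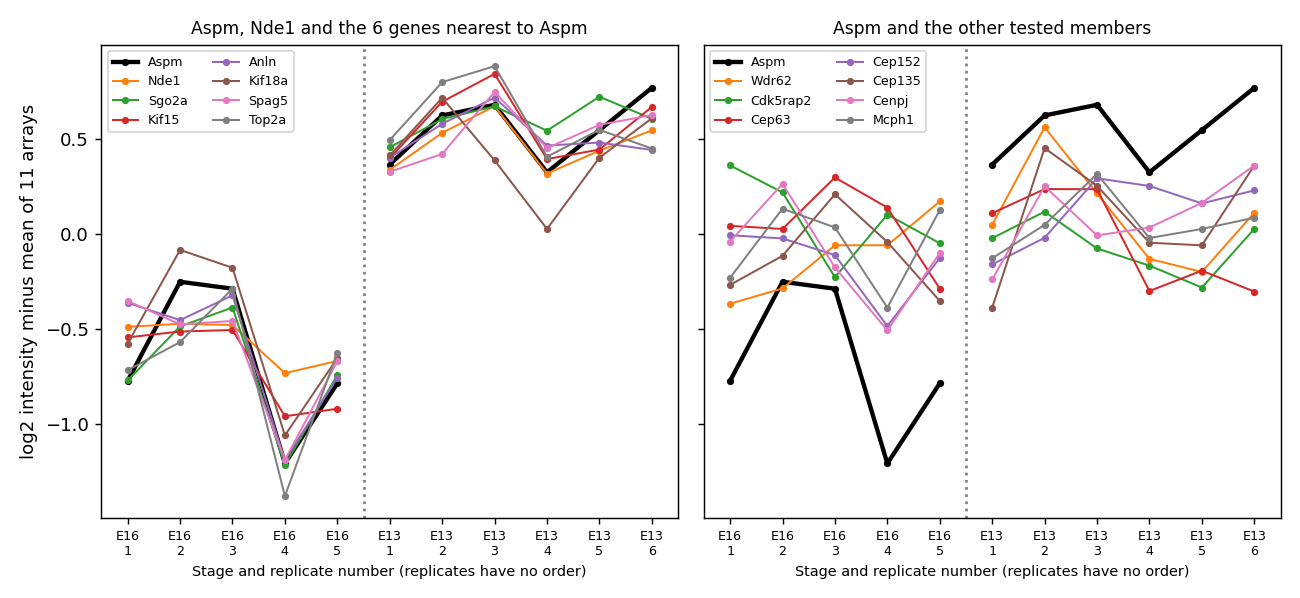
Log2 intensity minus the gene's mean over 11 arrays (vertical axis) for 5 E16 and 6 E13 arrays (horizontal axis), with Aspm in black in both panels. The left panel shows Nde1 and the 6 genes nearest to Aspm, the right panel the other 7 tested members. On the left all 8 genes are below 0 on each E16 array and above 0 on each E13 array, and on the right only Aspm is.

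Within a stage, the members were not equally high on every array. On E16 replicate 4 the 9 tested members deviated on average by -0.17 from their E16 means, and on E16 replicate 2 by 0.13. On E13 replicates 1, 4 and 5 they deviated by -0.16, -0.13 and -0.09 from their E13 means, and on E13 replicates 2, 3 and 6 by 0.16, 0.13 and 0.09. On E13 replicate 6, 8 of 9 members were above their stage mean, and on E13 replicate 4, 1 of 9 was. On E16 replicate 4, 4 of 9 were. As means over 9 genes these deviations were small beside the falls of Aspm and Nde1 and of the size of the differences of the other genes. Single genes could deviate more: Aspm read 6.46 on E16 replicate 4, against its E16 mean of 7.01.

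The other genes of the centrosome were followed in lists by role. In 4 lists of centriole assembly, pericentriolar material, appendage and linker, and satellite genes, counted once each, 12 of 58 tested genes were lower (20.7%) and 5 higher (8.62%) at E16, with a median difference of -0.08. That is 29.3% called in either direction, against 27.1% of all genes tested, of which 14.1% were lower and 13% higher. The share of the lists in either direction is near that background and is no result about centrosome genes. The count of 5 was 1 with median centring, 2 without E13 replicate 1 or 3 or E16 replicate 2 or 5, and 3 without E13 replicate 2 or 4 or E16 replicate 3. Among 20 genes of centriole assembly and length, 4 were lower and 2 higher, against 14.1% and 13% of all genes tested, with a median of -0.05. Plk4, the kinase that starts centriole duplication and works with Stil, Cep152 and Cep63, fell by 1.04 (a difference of -1.04, limma adjusted p = 1.68e-05). The centrin gene Cetn2 fell by 0.61 and passed in 21 of 23 alternatives. Cep57 (-0.31) and Poc1b (0.27) passed in 9 and 21 of 23. The difference of Sass6, the cartwheel protein that Stil binds (chosen after its value was seen), was 0.18 (limma adjusted p = 0.502).

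Of 17 genes of the pericentriolar material and gamma-tubulin complexes 3 were lower (17.6%) and 1 higher (5.88%), beside 14.1% and 13% of all genes tested, with a median of -0.08. Nedd1, which attaches the gamma-tubulin complex to the centrosome, fell by 0.59. Haus5 (-0.48) and Tubg1 (-0.40), which encode an augmin subunit and gamma-tubulin, passed in 12 and 19 of 23 alternatives, and the scaffold gene Akap9 (0.23) in 7. Of 13 appendage and linker genes 4 were lower (30.8%) and 2 higher (15.4%), with a median of -0.003. Cntln, a centriole linker protein, fell by 0.78 and Cep83, of the distal appendages, by 0.47, while Sclt1 (-0.46) passed in 14 of 22 alternatives and Lrrc45, a linker protein, rose by 0.73. Of 8 satellite genes 1 was lower (12.5%), the ubiquitin ligase gene Mib1 (-0.68), and 0 were higher in limma (median -0.15).

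Of 17 tested genes of the spindle poles and of spindle assembly, 10 were lower (58.8%) and 0 higher, where 14.1% of all genes tested were lower and 13% higher. The list was chosen with earlier results of these data known, so its share is not independent support. Ccna2, a cyclin gene counted among the 10, was detected on 0 E16 and 5 E13 arrays, so it was kept only through the E13 arrays. The median difference of the list was -0.85, beside -0.01 for all genes tested, and the difference between lists was not tested. Nusap1 (-1.39), Tpx2 (-1.33), Aurka (-1.24) and Kif18b (-1.22), which act in microtubule stabilization, spindle assembly, spindle pole maturation and control of microtubule length, fell by amounts close to that of Aspm. On the same arrays 10 of 14 basal progenitor markers were lower and 2 higher, and a link between them and the spindle genes was not tested. For the dynein, dynactin and Lis1 list, which holds the partners of Nde1, 2 of 19 were lower (10.5%) and 0 higher, with a median of -0.07, and the share lower is near the 14.1% of all genes tested. Those 2 were light chain genes, Dynlt3 (-0.61) and Dynll1 (-0.26, past the threshold in 17 of 23 alternatives). Pafah1b1, which encodes Lis1, and Ndel1, the paralog of Nde1, both named after their values were seen, differed by -0.22 (limma adjusted p = 0.122) and 0.07 (limma adjusted p = 0.585).

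Of 19 tested genes among 22 others linked to primary microcephaly, 3 were lower (15.8%) and 1 higher (5.26%), with a median of -0.16. Of all genes tested 14.1% were lower and 13% higher, so the share lower is near the background. The condensin subunit gene Ncaph fell by 1.03. Cit, a kinase of cytokinesis, fell by 0.94, with its probe detected on 2 of 5 E16 arrays and all 6 E13 arrays. Knl1, a kinetochore scaffold, differed by -0.50 (limma adjusted p = 0.0241), was detected on 1 of 5 E16 and 5 of 6 E13 arrays, and passed in 13 of 21 alternatives. The probes of Cit and Knl1 met the detection filter only through the E13 arrays, where they were high. Their calls are therefore not independent of that filter, and near background their differences are understated. Cdk6, a G1 kinase also found at the centrosome, rose by at least 1.34-fold (limma adjusted p = 1.66e-04). It was detected on 5 of 5 E16 arrays and not well above background on any of the 6 E13 arrays. The bound therefore sets its E16 mean against the lowest detected signal of each E13 array. The Cdk6 probe was kept only through the E16 arrays, where it was high, so its call is not independent of the detection filter.

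**Figure D4:**
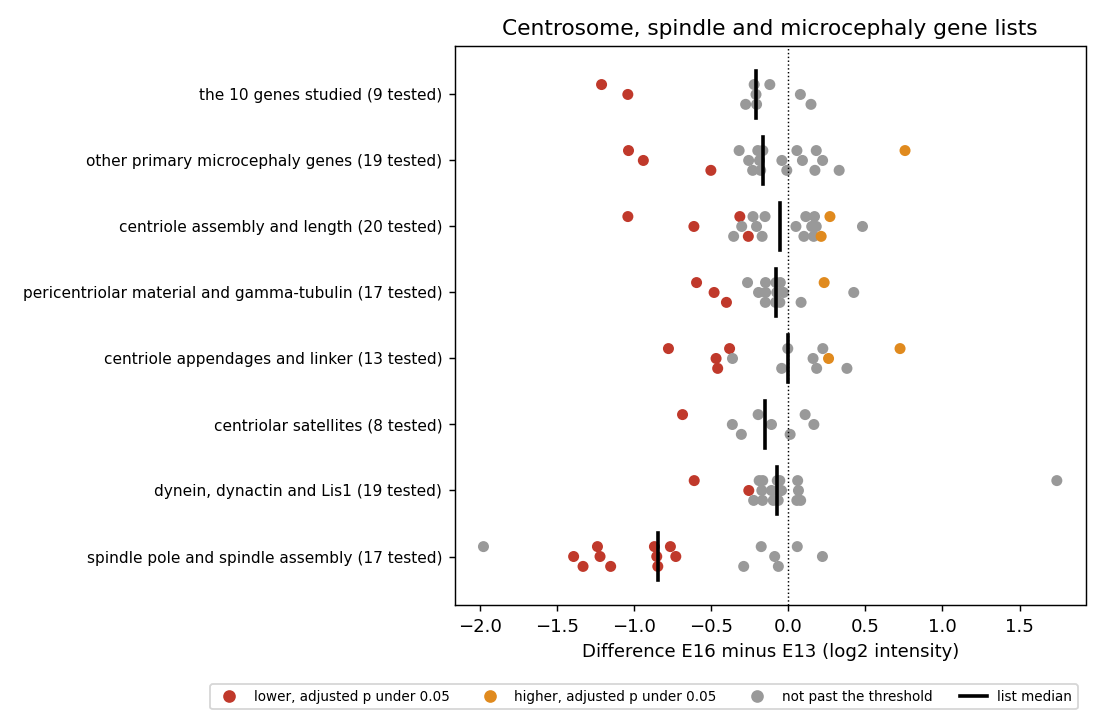
Difference E16 minus E13 on the log2 scale (horizontal axis) of each tested gene (points) in 8 lists (rows), with the list median as a bar. Red points are lower and orange points higher at an adjusted p under 0.05. The 9 tested members have a median of -0.21 with Aspm and Nde1 apart, while the spindle pole and spindle assembly list has a median of -0.85. The grey points at -1.98 (Plk1) and 1.74 (Dctn1) did not pass, with adjusted p of 0.0661 and 0.0649.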

How the data were processed

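Per the labels' protocols, RNA of the sorted cells was isolated with a mirVana kit and turned into biotin-labelled cRNA for an Illumina bead array. The deposited raw table held linear intensities, not normalized between arrays, with a detection p-value for each probe per the file headers. On each array 26.9% to 29.2% of intensities were negative, which background subtraction by the authors before deposit would give. The authors' deposited value table, log2 values of 16554 probes, served as an alternative. The scanner software is not given in the sources used here. Probes were named through the platform annotation: 34885 had 1 symbol, 18 several and 10378 were not listed.

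Background was corrected by normexp guided by detection p-values, and an offset of 16 was added. Arrays were then quantile normalized on the linear scale, and log2 was taken last (neqc steps, limma 3.58.1, R 4.3.3). Probes detected (p-value under 0.05) on at least 5 arrays were kept (20599), and the probe with the highest mean stood for its gene (10568 genes). The stages were compared with lmFit and eBayes with a mean-variance trend on all 11 arrays, two-sided, adjusted by Benjamini-Hochberg. The script was tested on simulated data. The number of arrays limits the precision (median standard error 0.126). Embryos of 1 litter entered as independent samples, since litters were unknown per array. Pairs of members were tested by exact permutation (scipy 1.17.1). Replicate numbers did not pair the arrays: the deviations of same-numbered arrays correlated between -0.10 and 0.14.

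The members and lists were chosen with earlier results of these data known. Named genes were the members, up to 4 called genes per centrosome or spindle list with the largest differences, the 6 nearest to Aspm, Eomes and the 2 cell type markers with the largest differences. Others are said to be named after their values were seen. Alternatives covered normalization, background, the value table, detection filters, the variance trend, array weights, the choice of probe, left-out arrays and a replicate block.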

Additional observations from a re-analysis of the deposited data

Results flagged for a closer look

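One reading stood apart from the other samples of its group. Cep152 read 8.25 on E16 replicate 4, the lowest of 5, with the next array at 8.61 and the highest at 8.73, a gap of 0.7485 of the whole range against a critical value of 0.71 in Dixon's test. In all, 36 groups were examined, 18 kept probes in 2 stages, and chance flags about 1 in 20. Without that array the Cep152 difference was -0.19 (limma adjusted p = 0.204), in place of -0.28. The same array had the lowest E16 values of Aspm, Cenpj, Mcph1 and Nde1.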

How the results depend on the processing

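Aspm and Nde1 stayed past the threshold in 23 of 23 alternatives (limma), with differences of -1.33 to -1.03 and -1.10 to -0.98. The difference of Cep63, not past the threshold, turned sign with the mean of a gene's probes (-0.0463, adjusted p = 0.803) and without E16 replicates 3 and 4 (-0.0370, adjusted p = 0.885). The 5 genes higher among the 58 pooled centrosome genes became 1 with median centring, 2 with no detection filter, with no mean-variance trend or without E16 replicates 1 and 2, 3 with every probe on its own, and 2 to 5 without 1 array at a time; the cause was not tested. The count of members lower was 3 with array weights and without E13 replicate 1 and otherwise 2. Wdr62 could not be tested in the deposited value table or under the strict detection filter, and Stil entered only with no filter. Arrays with the same replicate number were not paired, since only 1 of 10 correlated best with its own number; with a replicate block 1293 genes were lower and 1161 higher in place of 1495 and 1373, and Aspm (-1.17) and Nde1 (-1.03) stayed called. Signal over background limits Stil and Wdr62.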
